A study of Mus musculus with 34 samples.

Results

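The 10 genes described here, Arntl, Clock, Per1, Per2, Per3, Cry1, Nr1d1, Nr1d2, Dbp and Tef, encode core components and direct outputs of the circadian clock. They were picked by gene symbol and not by their values, and all 10 were listed in both deposited tables, among 14552 genes in the first and 17406 in the second. Gene expression had been measured by poly(A) RNA sequencing of left ventricle (LV) from CFW mice, an outbred strain, in which myocardial infarction (MI) was induced by permanently ligating the left anterior descending artery. The first table holds 10 libraries, all from uninjected mice, of which 3 are sham, 3 were collected 4 h after MI and 4 were collected 24 h after it. The second table holds 24 libraries. These come from 2 sham-operated, uninjected hearts collected at 4 h and from infarcted hearts that received modRNA (chemically modified messenger RNA) in the border zone directly after ligation. The injected modRNA was named Luc, the luciferase reporter, or AC, a name that the labels do not spell out. There were 4 Luc and 4 AC libraries at 4 h, 3 and 3 at 24 h, and 4 and 4 at 48 h. The labels of the first table's control mice state "No operation", although their titles call them sham and the study describes sham-operated hearts. Whether these mice had been operated on therefore cannot be told. The groups thus differed in surgery and in time, the second table has no infarcted heart without an injection, and the age of the mice was not given in the sources used here. The hour of the day at which hearts were collected was not given either, so hour of collection and group cannot be told apart in any comparison below. Separate libraries are named by the letter or number in their titles, and the study's methods describe a piece of each heart being sequenced for the first table, while for the second it was not stated whether a library is 1 heart.

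The circadian clock is a transcriptional feedback loop that runs in almost every cell of the body, cardiomyocytes included. The proteins of Arntl (also called Bmal1) and Clock form a pair that binds E-box sequences and switches on the Per and Cry genes, whose proteins then repress the pair. A second loop is formed by Nr1d1 and Nr1d2 (Rev-erb alpha and beta), nuclear receptors that repress Arntl. Dbp and Tef encode transcription factors that bind D-box sequences and pass the rhythm on to other genes. In mouse tissues, Arntl mRNA is known to peak at nearly the opposite time of day from Dbp, Per3 and Nr1d1 mRNA, and Per1 and Per2 also respond quickly to cAMP, to stress and to glucocorticoids.

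Some promoters of the members hold the letters of clock motifs. The windows shown are those in which a motif was found, because E-boxes, D-boxes and Rev-erb sites are what the clock's own factors bind. For 9 of the 10 genes (all but Per2), RefSeq promoters (assembly GRCm38.p6, 250 bases before to 50 bases after a transcription start, 14 starts in all) were searched on both strands for the E-box CACGTG, the D-boxes TTATGTAA and TTATGCAA, the Rev-erb and Ror core TAGGTCA, and the cAMP response element TGACGTCA. None of these motifs overlaps another in the windows printed. The motif is in capitals with 11 bases on either side, and each sequence is written 5′ to 3′ on the strand of its gene.
Per1, E-box 166 bases before the start, chr11:69098772-69098799, plus strand: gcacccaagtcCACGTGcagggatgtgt
Per1, D-box 24 bases before the start, chr11:69098914-69098943, plus strand: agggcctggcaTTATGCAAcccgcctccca
Cry1, E-box 60 bases before the start, chr10:85185098-85185125, minus strand: gtgccggtggtCACGTGgggtgcatgcc
Per3, D-box 205 bases before the start, chr4:151044852-151044881, minus strand: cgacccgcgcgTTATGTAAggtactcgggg
Per3, D-box 158 bases before the start, chr4:151044805-151044834, minus strand: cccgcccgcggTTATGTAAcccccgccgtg
Tef, E-box 127 bases before the upstream start, chr15:81802535-81802562, plus strand: tgctgtggctcCACGTGctgcagctggc
Tef, E-box 138 bases before the downstream start, chr15:81811265-81811292, plus strand: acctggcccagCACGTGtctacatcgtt
Arntl, Rev-erb and Ror core 30 bases after the downstream start, chr7:113207530-113207558, plus strand: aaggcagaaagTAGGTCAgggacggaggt
The E-box was found in 4 of the 14 member promoters (Cry1, Per1 and both of Tef), against 7.15% of the 32851 promoters of this length. The D-box was found in 2 (Per1 and Per3) against 1.66% of all promoters, the Rev-erb and Ror core in 1 (Arntl) against 2.61%, and the cAMP response element in 0 against 1.79%. A match is a description of the sequence and not evidence of binding, and no match says only that these letters are absent from these windows.

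The deposited values are read counts scaled to a common library size (CPM) by the authors' normalization, and in the second table they carry an added 1, which was subtracted. From the value of 1 read, the libraries were estimated to hold between 12551932 and 18952760 counted reads in the first table and between 17095380 and 22193640 in the second. The members ranged from 2.24 to 138 CPM in the first table and from 2.74 to 237 CPM in the second, so the lowest values rested on about 59 reads (Per3, 24 h post-MI library H) and 75 reads (Dbp, Luc 48 h library 1). All 10 passed the filter of a mean of at least 1 CPM in both tables. Cardiomyocyte markers, which check the tissue, summed to between 19950 and 79266 CPM in all libraries. In the first table this sum was 49682 to 53140 in sham and 19950 to 34351 at 24 h, where the neutrophil and monocyte markers summed to 516 to 2186 CPM against 56.2 to 117 in sham. All 8 neutrophil and monocyte markers were called higher there, with a median difference of 5.15 on the log2 scale, beside 0.04 for all genes. In the second table the cardiomyocyte sum was 63730 to 79266 in Luc 24 h libraries and 53468 to 57034 in sham, and the neutrophil and monocyte sum was 97.6 to 150 and 73.9 to 154. Of the same 8 markers, 5 were called higher in Luc 24 h than in sham and 0 lower, with a median difference of 1.51, beside 0.16 for all genes. At 48 h the cardiomyocyte sum was 34190 to 47674 with Luc and 25959 to 31722 with AC, and the fibroblast sum was 714 to 1066 and 1201 to 1957. In bulk tissue, fewer cells of a type and less RNA per cell cannot be told apart, and the part of cell composition in the results below was not tested.

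One library stood apart for these genes. Sham library D of the first table held 7.13 CPM of Dbp, whereas sham libraries H and I held 56.2 and 61.9 CPM. Per3 was 4.63 CPM in D against 23.3 and 24.7, and Tef was 45.2 CPM against 127 and 114. Arntl went the other way, with 15.6 CPM in D against 3.63 and 5.36 in H and I. The Dbp and Tef values of D lay within the range of the 24 h post-MI libraries (4.09 to 7.89 and 30.2 to 55.8 CPM), and its Per3 value lay just above theirs (2.24 to 4.31 CPM). The cardiomyocyte marker sum of D was 49786 CPM, between those of H and I, and its mean correlation with the other sham libraries over all genes was 0.986, against 0.990 and 0.988. D also held the most Rn45s, a ribosomal RNA gene (40038 CPM, against 6881 and 14567), the highest neutrophil and monocyte sum of the sham libraries (117 CPM) and more Fkbp5, a glucocorticoid-induced gene (34.5 CPM, against 7.06 and 6.08). The part of these differences in its clock gene levels was not tested. For this reason, values from comparisons with the first table's sham are also given without D for the members called and for the clock, output, glucocorticoid-induced and immediate early genes named with a value. D was singled out by its levels of Dbp, Per3, Tef and Arntl, so leaving it out narrows the spread of these genes in sham. Their differences and p-values without D therefore describe how far the results rest on D and are not further tests.

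**Figure D1:**
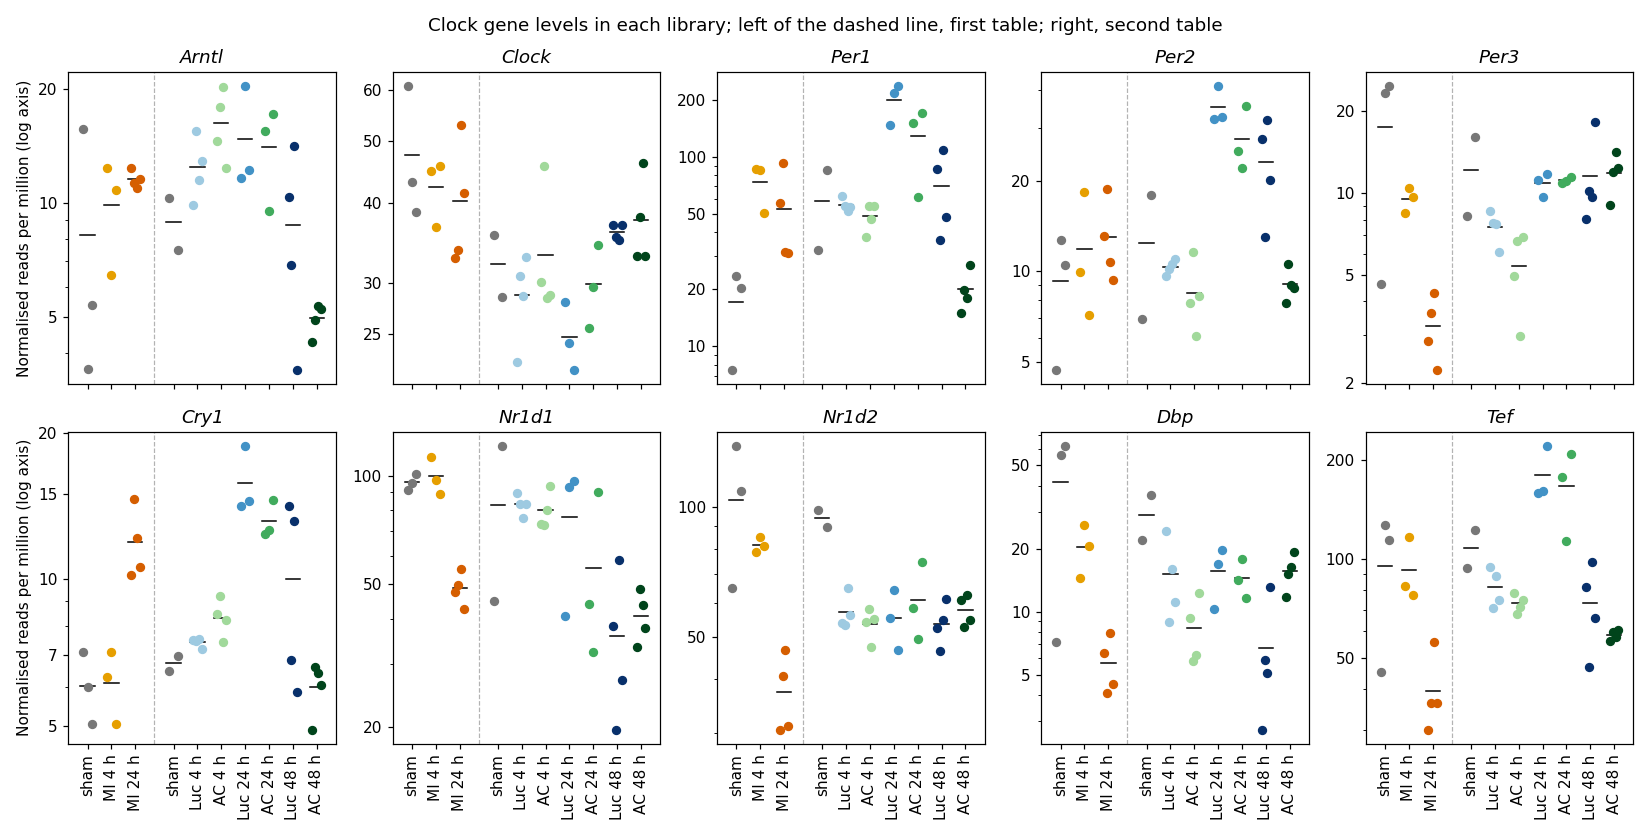
Level of each clock gene (CPM, log axis) in the 34 libraries, with 1 point per library and a bar at the group mean. Left of the dashed line are the 3 groups of the first table and right of it the 7 groups of the second; the sham points of Dbp, Per3, Tef and Arntl are split between library D and the other two, and Per1 and Tef have their highest group means at 24 h in the second table.

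Of the 120 tests made on the members (10 genes in 12 comparisons), 42 passed an adjusted p of 0.05 in limma, a linear model fitted over all genes of a table on log2(CPM + 1). Over the same comparisons, between 0% and 37.2% of all genes were called in a given direction. These shares are given beside the member counts of each comparison below, and the total is not read as a result about the members. Differences below are on this log2 scale, as difference ± standard error. Nr1d1 and Nr1d2 were called lower in 5 comparisons each and higher in 0, Dbp lower in 5 and higher in 1, and Per1 and Cry1 each higher in 4 and lower in 2. Per2 was higher in 4 and lower in 1, Tef higher in 2 and lower in 3, and Per3 lower in 2. Clock and Arntl were called in 1 comparison each. The median difference of the 10 members was -0.60 at 24 h post-MI against sham and -0.80 against 4 h post-MI, where the medians of all genes tested were 0.04 and 0.10. In the second table it was 0.34 in Luc 24 h against Luc 4 h and -0.73 in Luc 48 h against Luc 24 h, beside 0.14 and -0.25 for all genes, and in the remaining comparisons it lay between -0.13 and 0.30. Comparisons that share a control group are not independent of one another, and their values are given side by side.

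At 4 h post-MI in the first table, Per1 was the member that rose. Per1 was 7.52, 23.5 and 20.3 CPM in sham D, H and I, and 86.8, 85.1 and 50.9 CPM at 4 h, so every 4 h library lay above every sham library. The difference was 2.15 ± 0.46 (adjusted p = 0.0341), and it was the 1 of 10 members called higher, beside 1.55% of all genes, with 0 called lower, beside 0.817%, and also the 1 member with an unadjusted p under 0.05, beside 16.5% of all genes. Leaving out 1 library moved the share of all genes called higher between 0.793% (without sham H) and 2.22% (without 24 h library G) and that called lower between 0.048% and 2.27% (the same libraries). The other members differed from sham by between -0.57 (Dbp) and 0.42 (Arntl). The calls turned on sham D. Without it, Per1 was no longer called (1.68, adjusted p = 0.0849), while Dbp (-1.53, adjusted p = 0.0214) and Per3 (-1.25, adjusted p = 0.0127) were called lower. Against H and I alone, the Dbp levels at 4 h (14.5, 26 and 20.6 CPM) and the Per3 levels (8.42, 10.5 and 9.72 CPM) were all lower. The Per1 call was also lost when any 4 h library or sham H or I was left out (adjusted p between 0.05 and 0.145). Of 8 immediate early genes, which respond to stimuli within the hour as Per1 can, 7 also rose at 4 h, beside 1.55% of all genes. They were led by Atf3 (5.45 ± 0.26, and 5.67 without sham D) and Fos (4.25 ± 0.35, and 3.92 without D). In Luc 4 h hearts against sham, 7 of the 8 were higher as well (median difference 3.83), beside 1.25% of all genes. Per1 differed there by 0.08 and was not called. How Per1 relates to these genes was not tested.

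At 24 h post-MI, 2 of 10 members were higher than in sham, beside 35.6% of all genes, and 5 were lower, beside 30.3%. In either direction, 7 of 10 had an unadjusted p under 0.05, close to the 69.1% of all genes. The D-box factors Dbp and Tef, the period gene Per3 and both Rev-erb genes fell, whereas Cry1 and Per1 rose. Dbp was 6.34, 4.09, 7.89 and 4.53 CPM in the 24 h libraries C, D, G and H, below both H and I of sham but overlapping sham D. It differed from sham by -2.24 ± 0.58 (adjusted p = 0.00515), and by -3.20 without sham D (adjusted p = 7.09e-06). Per3 was 2.85, 3.63, 4.31 and 2.24 CPM at 24 h, below all 3 sham libraries, a difference of -1.86 ± 0.43 (adjusted p = 0.00263; -2.58 without D). Tef fell by 1.15 (SE 0.32, adjusted p = 0.00828; -1.61 without D). Nr1d2, which was 64.8, 138 and 108 CPM in sham and 30.6 to 46.6 CPM at 24 h, fell by 1.41 (SE 0.22, adjusted p = 0.000203; -1.71 without D). Nr1d1 was the steadiest of the falls. It was 91.3, 95.3 and 101 CPM in sham and 47.6, 49.7, 55.2 and 42.7 CPM at 24 h, with no overlap, a difference of -0.96 ± 0.11 (adjusted p = 1.84e-05), and -0.999 without sham D. Thra, the thyroid hormone receptor gene that overlaps Nr1d1 (mm10 chr11:98767932-98775378, minus strand) on the opposite strand, fell as well (-1.34 ± 0.20, adjusted p = 0.000113), and whether the strand of reads was used in counting was not given in the sources used here, so reads of the overlap may be counted for either gene.

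Cry1, a repressor of the loop, was 7.09, 6.01 and 5.04 CPM in sham and 10.2, 14.6, 12.2 and 10.6 CPM at 24 h. All 24 h libraries were above all sham libraries, and the difference was 0.87 ± 0.16 (adjusted p = 0.000478; 0.98 without sham D). Per1 was 56.9, 92.7, 31.3 and 31.1 CPM at 24 h, again above every sham library (1.57 ± 0.43, adjusted p = 0.00704; 1.09 and adjusted p = 0.0359 without D). Arntl was 11 to 12.3 CPM in the 24 h libraries, a narrow range, and its difference from sham depended on D: 0.67 without a call with all 3 sham libraries, and 1.21 (adjusted p = 0.000913) without D. Clock (-0.24) and Per2 (0.49) did not pass the test, with or without D (-0.05 and 0.11 without it). Between 4 h and 24 h, a comparison that holds no sham library, 1 member rose (Cry1, 0.85 ± 0.16) beside 37.2% of all genes, and 5 fell beside 26.7%. These were Dbp (-1.67 ± 0.58), Nr1d1 (-1.01 ± 0.11), Nr1d2 (-1.13 ± 0.22), Per3 (-1.33 ± 0.43) and Tef (-1.21 ± 0.32). Leaving out 24 h library D or H, or 4 h library D or E, ended the call of Dbp (adjusted p between 0.0564 and 0.0824), and leaving out 4 h library D or E ended that of Per3.

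**Figure D2:**
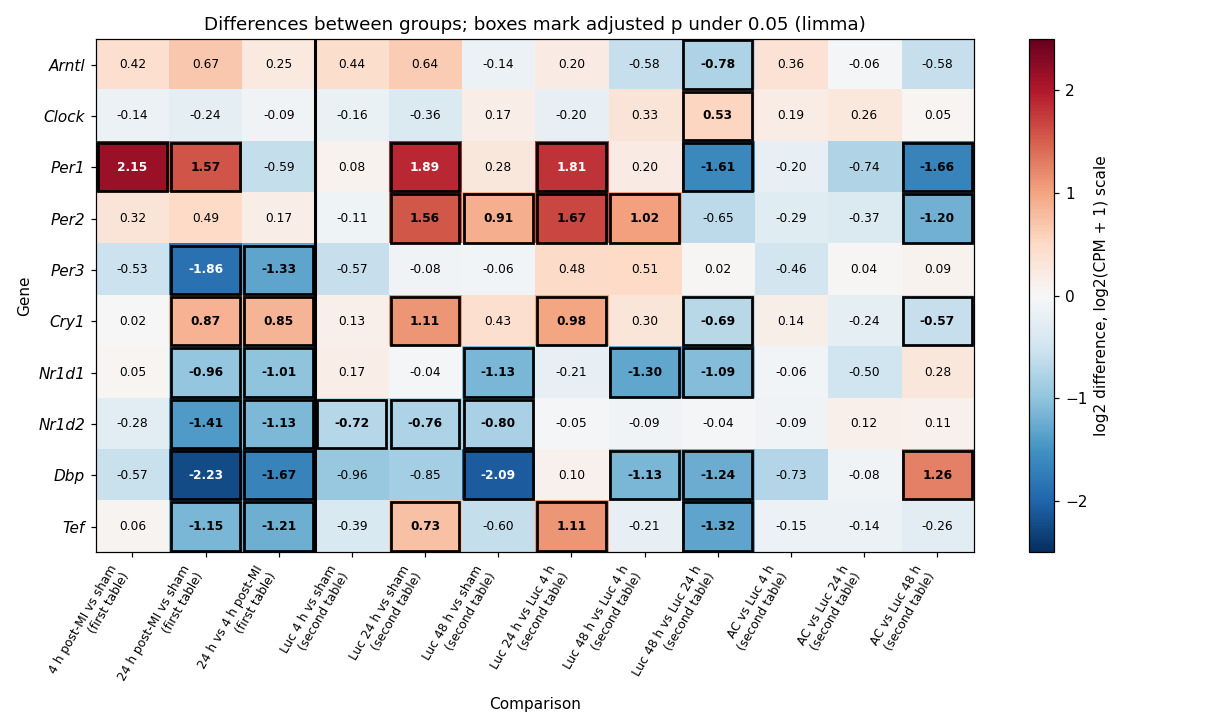
Difference between groups on the log2(CPM + 1) scale for each clock gene (rows) in each comparison (columns; first table left of the thick line, second table right of it), with red for higher and blue for lower in the group named first. Boxes mark an adjusted p under 0.05; at 24 h the first table has boxes in blue for Tef, Dbp, Nr1d1, Nr1d2 and Per3, and the second has Tef in red (1.11 against Luc 4 h).

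Between Luc 4 h hearts and sham in the second table, Nr1d2 was the member called. It was the 1 of 10 lower, beside 0.295% of all genes, with 0 higher, beside 1.25%, and 2 members (Nr1d2 and Dbp, both lower) had an unadjusted p under 0.05, beside 13.6% of all genes. Without sham 1 the shares of all genes called fell to 0.0398% lower and 0.374% higher. Nr1d2 was 98.5 and 89.96 CPM in sham libraries 1 and 2 and 53.9, 53.5, 64.9 and 56.2 CPM in the Luc 4 h libraries. The groups did not overlap and differed by -0.72 ± 0.16 (adjusted p = 0.0182), a call that was lost without sham 1, Luc 1 or Luc 2 (adjusted p between 0.0571 and 0.3). Per1 was not called here (0.08, 95% interval -0.75 to 0.91), and its sham libraries held 32.4 and 84.9 CPM, on either side of the Luc 4 h values of 51.8 to 62.3 CPM. Nr1d1 (44.9 and 121 CPM) and Per2 (6.91 and 17.9 CPM) were also unequal between the same pair of sham libraries. Differences from this sham rest on 2 libraries.

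At 24 h the Luc hearts had the highest mean levels of Per1 and Per2 in the second table. Per1 was 148, 219 and 237 CPM in Luc 24 h libraries A, C and D, above every sham and Luc 4 h library, with differences of 1.89 ± 0.42 from sham and 1.81 ± 0.35 from Luc 4 h (adjusted p = 0.0017 and 0.00068). Per2 was 31.9, 41.2 and 32.5 CPM, against 9.61 to 10.97 CPM at 4 h, a rise of 1.67 ± 0.27 (adjusted p = 9.76e-05). Cry1 (14.2, 18.8 and 14.5 CPM) and Tef (158, 161 and 220 CPM) also lay above all Luc 4 h libraries, by 0.98 ± 0.20 and 1.11 ± 0.21. These were the 4 members called higher than at 4 h, beside 24.5% of all genes, with 0 called lower, beside 7.8%, and 4 with an unadjusted p under 0.05, beside 42.9%. Against sham the same 4 were higher, beside 25.3%, and Nr1d2 was lower (-0.76 ± 0.17), beside 8.79%. Dbp (10.3, 16.9 and 19.8 CPM), Nr1d1 (40.9, 92.9 and 96.5 CPM) and Per3 (11.2, 9.67 and 11.8 CPM), which fell between 4 h and 24 h in the first table, differed from Luc 4 h here by 0.10, -0.21 and 0.48 and were not called. The tables were normalized separately, and the difference between them was not tested. Without sham 1, the calls of Per1, Per2 and Tef against sham were lost (1.21, 0.93 and 0.53, adjusted p between 0.0773 and 0.259), which left 2 (with 10.7% of all genes higher and 2.68% lower), and that of Tef was also lost without Luc 24 h library D (0.57, adjusted p = 0.112), whereas the calls against Luc 4 h were kept in each of the 24 fits without 1 library. Rescaling by median ratios moved the median of all genes from 0.16 to -0.01 against sham and from 0.14 to -0.01 against Luc 4 h, and the share of called genes that were higher from 74.2% to 52.8% and from 75.9% to 52.4%. On that scale Per1 differed from Luc 4 h by 1.64, Per2 by 1.503, Cry1 by 0.83 and Tef by 0.94, all still called, and the call of Tef against sham was lost (0.53, adjusted p = 0.0887).

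By 48 h, Dbp and Nr1d1 were low in Luc hearts. Dbp was 2.74, 5.88, 5.11 and 13.1 CPM in Luc 48 h libraries 1 to 4, below both sham libraries (21.9 and 36.3 CPM), and it fell by 2.09 against sham (SE 0.40, adjusted p = 0.000575) and by 1.13 against Luc 4 h (SE 0.33, adjusted p = 0.0101). Nr1d1 was 38.2, 19.7, 58.2 and 27.1 CPM, below all Luc 4 h libraries (76.3 to 89.4 CPM), a fall of 1.30 (SE 0.33, adjusted p = 0.00375). Thra, which overlaps Nr1d1, was also called lower against Luc 4 h (-0.46 ± 0.15) and against Luc 24 h (-0.52 ± 0.16). Reads of the overlap may be counted for either gene here too. Per2, at 27.5, 12.9, 31.9 and 20.05 CPM, stayed above all Luc 4 h libraries (1.02 ± 0.25, adjusted p = 0.00284). Against sham, 1 member was higher (Per2, 0.91) beside 13.7% of all genes and 3 were lower (Dbp, Nr1d1 and Nr1d2) beside 16.4%. Against Luc 4 h, 1 was higher beside 15% and 2 were lower beside 21.5%. The call of Dbp against Luc 4 h was lost without Luc 4 h library 1 or Luc 48 h library 1 (adjusted p = 0.0513 and 0.0515), that of Per2 against sham without sham 1 or Luc 48 h library 1 or 3 (adjusted p between 0.0668 and 0.613), and that of Nr1d1 against sham without sham 2 or Luc 48 h library 2 or 4 (adjusted p between 0.0664 and 0.544).

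Between 24 h and 48 h in Luc hearts, 6 members fell, beside 32.6% of all genes, and Clock rose (0.53 ± 0.17, adjusted p = 0.0141), beside 9.32%. The falls were in Per1 (-1.61 ± 0.35), Tef (-1.32 ± 0.21), Dbp (-1.24 ± 0.36), Nr1d1 (-1.09 ± 0.35), Arntl (-0.78 ± 0.29) and Cry1 (-0.69 ± 0.20). Clock was 28.0, 24.2 and 21.9 CPM at 24 h and 35.0 to 37.0 CPM at 48 h, and it was the least variable of the members among the Luc 48 h libraries. The median of all genes was -0.25 here and -0.03 after median-ratio rescaling, which moved the share of called genes that were higher from 22.3% to 49%. Rescaled, Per1 (-1.37), Tef (-1.08), Dbp (-1.01) and Clock (0.77) were called, and Arntl (-0.55, adjusted p = 0.177), Cry1 (-0.46, adjusted p = 0.0915) and Nr1d1 (-0.85, adjusted p = 0.0682) were not. Without Luc 24 h library C the calls of Arntl, Cry1 and Nr1d1 were lost, and without library D those of Clock, Nr1d1 and Dbp (adjusted p between 0.053 and 0.195). The call of Arntl was also lost without Luc 48 h library 2 or 4 (adjusted p = 0.0801 and 0.149), and that of Nr1d1 without Luc 48 h library 2 (adjusted p = 0.0687). In titles, the sham and 4 h libraries of this table share 1 series of S numbers, the 48 h libraries have another and the 24 h libraries have none. What this naming marks was not given, so time and naming cannot be told apart.

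AC and Luc hearts were compared at each time. At 4 h and at 24 h, 0 of 10 members were called higher, beside 0.00796% of all genes at both times, and 0 lower, beside 0%. At an unadjusted p under 0.05, 1 member differed at 4 h (Dbp, -0.73 ± 0.33), beside 1.04% of all genes, and 0 at 24 h, beside 4.77%. AC 24 h library C held 61.7 CPM of Per1, against 152 and 172 CPM in AC 24 h libraries A and D and 148 to 237 CPM with Luc, and it also had the highest neutrophil and monocyte sum of the 24 h libraries (428 CPM, against 97.6 to 150), whose part in this was not tested. At 48 h, Dbp was higher with AC (1 of 10, beside 12.1%) and Per1, Per2 and Cry1 were lower (3 of 10, beside 3.27%). Without 1 library, the share of all genes called higher ran from 5.08% (without Luc library 3) to 17.7% (without Luc library 4) and that called lower from 1.18% (without Luc library 1) to 5.37% (without Luc library 4). Per1 was 14.98, 19.9, 18.1 and 26.97 CPM in AC libraries 1, 2, 4 and 5 and 86.5, 36.7, 109 and 48.2 CPM in Luc libraries 1 to 4. All AC values were below all Luc values, a difference of -1.66 ± 0.33 (adjusted p = 0.00182). Per2 was 7.84, 10.5, 9.003 and 8.77 CPM with AC, again below every Luc library (-1.20 ± 0.25, adjusted p = 0.00259). Dbp was 11.8, 15.2, 16.3 and 19.3 CPM with AC, above Luc libraries 1, 2 and 3 but overlapping Luc library 4 (13.1 CPM), a difference of 1.26 ± 0.33 (adjusted p = 0.0138). Cry1 (-0.57 ± 0.19, adjusted p = 0.0414) was 4.91 to 6.599 CPM with AC and 5.86 to 14.1 CPM with Luc, overlapping. The remaining members differed by between -0.58 (Arntl) and 0.28 (Nr1d1). Without Luc library 1, Dbp (0.97, adjusted p = 0.0666) and Cry1 (-0.39, adjusted p = 0.177) were no longer called, which left 2 calls, and the call of Cry1 was also lost without Luc library 3 or any AC library, and, through the shared estimate of spread, without Luc 4 h library 2, 3 or 4 (adjusted p between 0.0503 and 0.185). Without Luc library 4, Arntl was called lower (-0.90, adjusted p = 0.00952). The median of all genes was 0.14, and 0.00 after median-ratio rescaling, which moved the share of called genes that were higher from 78.7% to 50.7%. All 4 member calls were kept on that scale, with -1.81 for Per1, -1.34 for Per2, -0.71 for Cry1 and 1.13 for Dbp. The change of the AC effect between times was tested too. It passed for Dbp between 48 h and 4 h (1.99 ± 0.47, adjusted p = 0.0185), 1 of 10 members beside 3.35% of all genes. Between 48 h and 24 h it passed for 0 members, beside 2.56%, and between 24 h and 4 h for 0, beside 0.00796%.

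The Luc 48 h libraries did not form 1 level. Libraries 1 and 3 held 86.5 and 109 CPM of Per1, 14.1 and 13.2 CPM of Cry1 and 10.4 and 14.2 CPM of Arntl. Libraries 2 and 4 held 36.7 and 48.2 CPM of Per1, 6.84 and 5.86 CPM of Cry1 and 6.86 and 3.62 CPM of Arntl. The AC 48 h libraries were closer to one another, with Arntl from 4.30 to 5.34 CPM and Tef from 56.2 to 60.7 CPM. The median SD of the members on the log2 scale was 0.57 among Luc 48 h and 0.19 among AC 48 h libraries, and over all genes tested it was 0.26 and 0.17. Libraries 1 and 3 also had the higher cardiomyocyte sums of the Luc 48 h group (47674 and 38810 CPM, against 34190 and 34307) and more Fkbp5 (126 and 117 CPM, against 52.0 and 31.5), and the part of either in the clock gene levels was not tested.

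Pooled over the groups of a table, most members varied more within groups than most genes, though not in every group. In the first table the pooled within-group SD of Dbp (0.95 on the log2 scale) was above that of 99.8% of the genes tested, and those of Per3, Per1, Arntl, Per2 and Tef were above those of 97.1% or more. Nr1d1 (0.14) was above only 27.2%. In the second table Per1, Dbp and Nr1d1 each had an SD of 0.52, above 96.2% of genes, whereas Nr1d2 (0.17) was above 13.8% and Clock (0.22) above 34.5%. Cry1 (0.27) and Tef (0.29) lay between, above 59.35% and 64.2%. Much of the spread of the first table was in sham, where the median SD of the members was 0.74 against 0.13 for all genes tested. It was 0.26 against 0.13 at 4 h and 0.31 against 0.21 at 24 h. The SD of Arntl was 0.96 in sham and 0.07 at 24 h. In the second table the median SD of the members was closer to that of all genes in both 4 h groups. It was 0.16 against 0.13 in Luc 4 h and 0.28 against 0.26 in AC 4 h. In Luc 24 h and AC 24 h it was 0.25 against 0.19 and 0.32 against 0.22, and in sham 0.39 against 0.21.

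**Figure D3:**
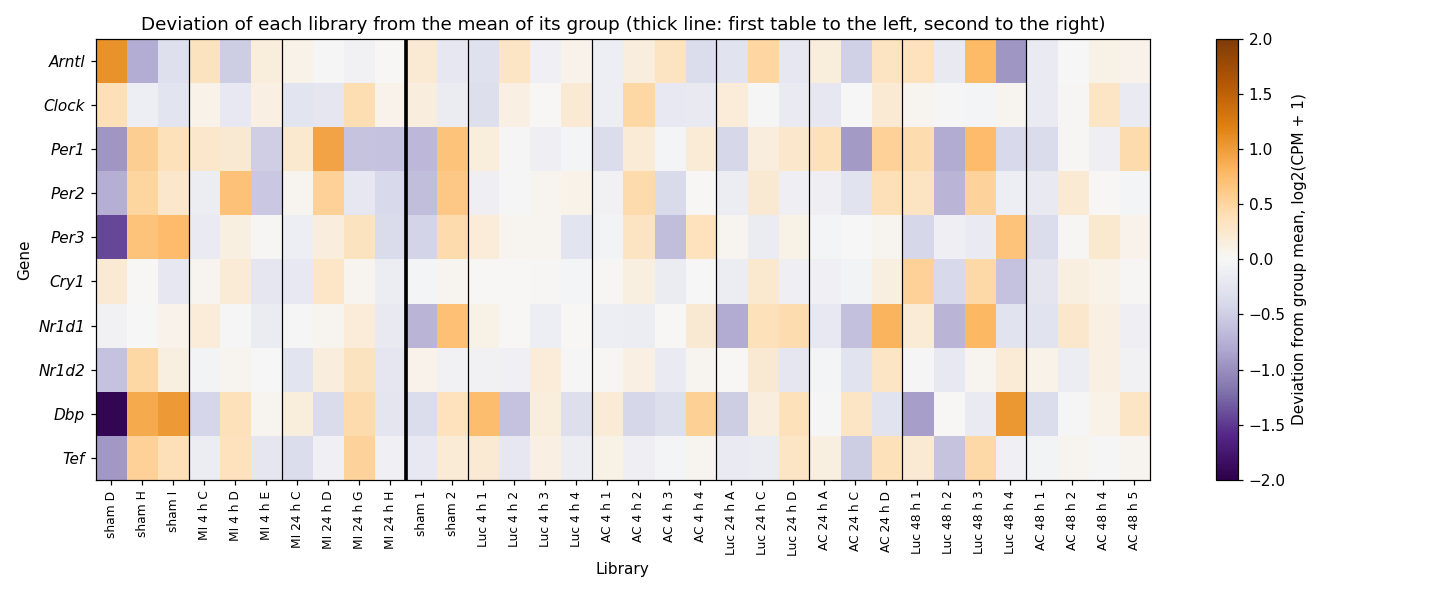
Deviation of each library (columns) from the mean of its own group on the log2(CPM + 1) scale for each clock gene (rows), orange above and purple below the mean, with the first table left of the thick line. Sham D is low in Dbp, Per3, Tef, Per1 and Per2 and high in Arntl, and Luc 48 h library 4 is high in Dbp and low in Arntl.

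The within-group deviations of Arntl and Dbp, whose mRNAs have opposite phases in the known cycle, were negatively correlated over each table, but not in every group. In AC 48 h libraries 1, 2, 4 and 5 both genes deviated in the same direction (Arntl -0.16, -0.005, 0.10 and 0.07, Dbp -0.36, -0.02, 0.08 and 0.30). Signs were also the same in Luc 24 h libraries A and C, 24 h post-MI libraries C and D and 4 h post-MI library E, and opposite in all other libraries. Over the 10 libraries of the first table, the deviations from the group means had Pearson's r = -0.905 (exact permutation within groups, 864 arrangements, two-sided p = 0.047) and Spearman's rho = -0.83 (exact p = 0.039). This rests on sham D: without it r was -0.484 (exact permutation p = 0.354), and without D and I, the libraries farthest from the median of Dbp, r was -0.604. Over the 24 libraries of the second table, r was -0.653 (permutation within groups, p = 0.013) and rho was -0.605 (permutation p = 0.011). The relation weakened without Luc 48 h library 4 (r = -0.462, permutation p = 0.0641) and without both Luc 48 h libraries 4 and 1 (r = -0.483). Adjusted over these 2 relations, the permutation p-values of r were 0.047 and 0.027. In the second table, 0.343% of all genes tested had a lower r with Dbp than Arntl had. A lower r with Arntl than Dbp had was found for 4.89%. In the first table these shares were 0.248% and 0.0481%. As levels, the log2 ratio of Arntl to Dbp was 1.13 in sham D and -3.95 and -3.53 in sham H and I, and it ran from 0.47 to 1.46 at 24 h post-MI. Among the Luc 48 h libraries it ran from -1.86 in library 4 to 1.92 in library 1.

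**Figure D4:**
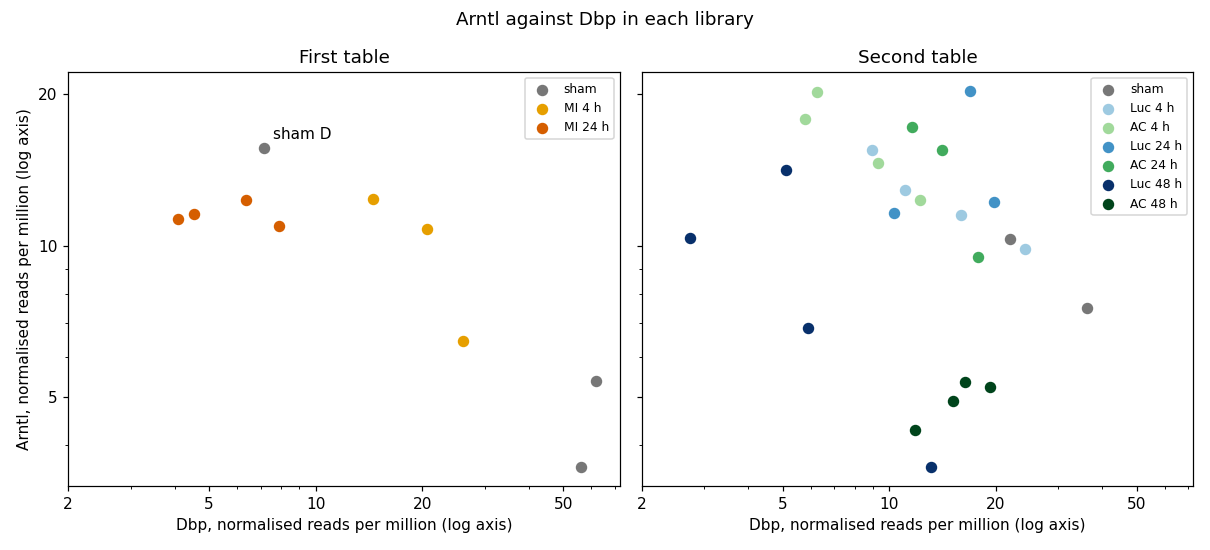
Arntl against Dbp in each library (CPM, log axes on both), coloured by group, with the first table on the left and the second on the right. Sham D (15.6 CPM of Arntl, 7.13 of Dbp) lies near the 24 h post-MI libraries and away from sham H and I, and the AC 48 h libraries lie together below 6 CPM of Arntl.

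Other members followed Dbp in part. The r of Per3 with Dbp was 0.954 in the first table and 0.658 in the second, that of Tef was 0.888 and 0.06, and that of Nr1d2 was 0.804 and -0.02. Sham D is the widest deviation of the first table. The r of Cry1 with Arntl was 0.166 in the first table and 0.732 in the second. Of the other genes named above as opposite to Arntl in phase, Per3 had an r with Arntl of -0.883 and -0.583. Nr1d1 had -0.105 and 0.428, and its r with Dbp was 0.232 and 0.08. The r of Per1, Per2 and Tef with Arntl was negative in the first table (-0.597, -0.792 and -0.898) and positive in the second (0.495, 0.338 and 0.323). Differences between the tables in these values were not tested. Among 7718 genes whose second-table mean was 10 CPM or more, the 5 whose within-group deviations over its 24 libraries were most like those of Dbp were Btd (r = 0.868), Lman2 (0.861), Wdr6 (0.83), Cd248 (0.83) and Fam78a (0.821). Their r with Dbp in the first table was 0.332, 0.297, 0.651, 0.197 and 0.328. Those most like Arntl were Kctd6 (r = 0.823), Cdkn1a (0.819), Ptbp2 (0.816), Zmym5 (0.813) and Ppp4r2 (0.807), with -0.09, 0.772, -0.626, -0.515 and 0.10 in the first table. These 10 genes were picked by their r in the second table, so only the first-table values add to it. There Cdkn1a and Wdr6 had an r above 0.6. How many of all genes reach this in the first table was not counted. How far these values rest on sham D was not tested. These correlations share libraries and group means and are given as a description.

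The rest of the clock was read from a list of 12 further genes. At 4 h, Bhlhe40, a repressor that competes for E-boxes, rose in both tables (1.35 ± 0.14 in the first and 1.44 ± 0.36 in the second). It was the 1 of 12 called in the first table, beside 1.55% of all genes, where it was 53.3 to 72.1 CPM in sham and 152 to 162 CPM at 4 h. Without sham D its difference was 1.27, and Nfil3 was also called (1.62, adjusted p = 0.0234). In Luc 4 h hearts 4 of 12 were higher than in sham, beside 1.25% of all genes, and 0 lower, beside 0.295%, the others being Nfil3 (1.82 ± 0.46), Bhlhe41 (1.003 ± 0.20) and Npas2, a stand-in for Clock (0.98 ± 0.21). At 24 h post-MI against sham, 5 of 12 rose, beside 35.6% of all genes, and 2 fell, beside 30.3%. Nfil3, which competes with Dbp and Tef for the D-box, rose (2.64 ± 0.33, and 3.06 without sham D), and Hlf, the third member of the Dbp and Tef family, fell (-2.28 ± 0.27, and -2.68 without D, from 11.1 to 28.0 CPM in sham to 2.47 to 4.15 CPM). Csnk1d (0.91), Csnk1e (0.59), kinases of the Per proteins, and Bhlhe40 and Bhlhe41 (1.23 and 1.24) rose, and Rora fell (-0.37). Without sham D these values were 0.89, 0.53, 1.15, 0.84 and -0.46, all still called. In Luc 24 h hearts Nfil3 was also above sham (1.97 ± 0.49) and Hlf below it (-0.74 ± 0.24). There 4 of 12 were called higher, beside 25.3% of all genes, and 1 lower, beside 8.79%. Against Luc 4 h, Ciart (1.38), Cry2 (0.89), Csnk1e (0.81) and Csnk1d (0.64) rose, and Npas2 (-0.77) and Bhlhe41 (-0.79) fell. In that comparison 5 of 12 were called higher, beside 24.5% of all genes, and 2 lower, beside 7.8%. At 48 h against 24 h, Ciart (-1.57 ± 0.41), Cry2 (-1.11 ± 0.29), Csnk1d (-0.54) and Csnk1e (-0.75) fell, and against Luc 4 h Npas2 (-0.91), Bhlhe41 (-0.95) and Hlf (-0.60) fell. The counts called lower were 5 of 12, beside 32.6% of all genes, and 4 of 12, beside 21.5%. With AC, Nfil3 was lower than with Luc at 48 h (-1.14 ± 0.38), where 2 of 12 were called lower, beside 3.27% of all genes.

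Among 4 genes taken as outputs of the clock, Usp2 fell at 24 h post-MI (-0.80 ± 0.20) and Tspan4 and Lonrf3 rose (2.10 ± 0.22 and 1.33 ± 0.15). These were -1.05, 1.81 and 1.36 without sham D. Thus 2 of 4 were higher, beside 35.6% of all genes, and 1 lower, beside 30.3%. In Luc hearts at 24 h Usp2 was above Luc 4 h (0.72 ± 0.16), and Tspan4 and Lonrf3 were above sham (2.06 ± 0.23 and 1.49 ± 0.27). Of the 4, 3 were called higher than in Luc 4 h, beside 24.5% of all genes, and 2 higher than in sham, beside 25.3%. Usp2 was lower at 48 h than at 24 h (-0.77 ± 0.16), as was Wee1 (-0.53 ± 0.19), and Usp2 was lower with AC than with Luc at 48 h (-0.48 ± 0.15). Of the 4, 3 were called lower at 48 h than at 24 h, beside 32.6% of all genes, and 1 with AC, beside 3.27%. Of 6 glucocorticoid-induced genes, 2 were higher in Luc 24 h hearts than in sham, beside 25.3% of all genes, and 0 lower, beside 8.79%. In Luc 48 h against sham, 1 was higher, beside 13.7%, and 1 lower, beside 16.4%. In Luc 48 h, 2 were higher than in Luc 4 h, beside 15%, and 4 were lower than in Luc 24 h, beside 32.6%. Between Luc 4 h and sham and between AC and Luc at 4 h and 24 h, 0 of 6 were called by limma. At an unadjusted p under 0.05, 2, 0 and 1 differed, beside 13.6%, 1.04% and 4.77% of all genes. All 6 (Fkbp5, Tsc22d3, Sgk1, Zbtb16, Klf9 and Klf15) were higher in Luc 24 h than in Luc 4 h hearts, beside 24.5% of all genes, led by Fkbp5 (2.94 ± 0.35, adjusted p = 3.36e-06). All 6 were lower with AC than with Luc at 48 h, beside 3.27%, again led by Fkbp5 (-1.54 ± 0.33, adjusted p = 0.00319). At 24 h post-MI in the first table the list was split, with Fkbp5 (2.45 ± 0.57) and Sgk1 (0.86 ± 0.19) higher, beside 35.6% of all genes, and Klf9 (-1.28 ± 0.23) and Klf15 (-1.71 ± 0.25) lower, beside 30.3%. Without sham D, which held the most Fkbp5 of the sham libraries, these were 3.20, 1.02, -1.27 and -1.66. Sphk2, which overlaps Dbp (mm10 chr7:45705247-45710204, plus strand) on the opposite strand, moved against it at 24 h post-MI (0.29 ± 0.10, adjusted p = 0.0196) and rose in Luc 24 h hearts against Luc 4 h (0.96 ± 0.16), where Dbp was not called.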

How the data were processed

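LV RNA-seq values were analysed in 2 tables of 10 and 24 libraries. For the first table, the authors used STAR and mm10, Partek expectation-maximization counts on RefSeq transcripts, and TMM, so the deposited values are CPM relative to a scaled library size. How the second was made was not given in the sources used here. It was read as CPM with 1 added, because no library holds a value under 1. Of values below 3 CPM, 81.8% to 85.1% per library lay within 0.02 of a read of a whole number of reads, too few for a count test. Groups came from the labels.

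Log2(CPM + 1) was fitted with limma 3.58.1 in R 4.3.3 (mean-variance trend, all groups of a table in 1 model) for the 12487 and 12555 genes averaging 1 CPM or more. Benjamini-Hochberg adjustment ran over these genes, with calls at 0.05. Where the labels do not say that libraries are separate animals, p-values measure only the spread between libraries. Correlations used deviations from group means, with 100000 permutations in the second table, in Python 3.11.15 with numpy 2.4.6 and scipy 1.17.1. Alternatives were a pseudocount of 0.1, no filter, median-ratio rescaling, the compared groups alone, a replicate block and each library left out. Members, lists and tests were chosen with earlier results of these data known. Genes named beyond the members are those called in the lists of clock and clock output genes (some are not reported here), up to 4 of other lists by size, genes overlapping a member and the 5 most like Dbp and Arntl. Promoters came from RefSeq (GRCm38.p6).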

Additional observations from a re-analysis of the deposited data

Results flagged for a closer look

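Of 50 checks of a member in a group of 4 libraries, in which chance marks about 1 in 20, 1 marked a library: AC 4 h library 2 held 45.6 CPM of Clock, against 28.4 to 30.1 CPM in the other AC 4 h libraries. Groups of 3 or fewer, sham library D among them, were not checked in this way.

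Tef and Per3 differed between 4 h and 24 h with opposite signs in the 2 tables, with no overlap of libraries in either. All 10 members were screened for this over several pairs of comparisons, and how many of all genes meet the rule was not counted. The 2 genes are therefore given as a description and not as a result about the members. By limma calls, which are a different rule, 37.2% of all genes were higher and 26.7% lower between 4 h and 24 h in the first table. In Luc hearts of the second these shares were 24.5% and 7.8%. Tef was -1.21 in uninjected hearts of the first table and 1.11 in Luc hearts of the second, and Per3 was -1.33 and 0.48, the last of which was not called (limma adjusted p = 0.137). The difference between tables was not tested, since they were normalized separately. The second table's hearts were injected and those of the first were not, and the hour of collection was not given for either.

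The effect of AC against Luc on Dbp changed by 1.99 ± 0.47 between 4 h and 48 h (limma adjusted p = 0.0185). AC 4 h libraries held 5.79 to 12.2 CPM of Dbp against 8.96 to 24.2 CPM in Luc 4 h libraries, and at 48 h AC held 11.8 to 19.3 CPM against 2.74 to 13.1 CPM.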

How the results depend on the processing

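No member call changed direction under any setting. Of 42 calls, 42 were kept with a pseudocount of 0.1, 40 with no filter, 38 after median-ratio rescaling and 36 with the compared groups alone. Members called in Luc 48 h against 24 h fell from 7 to 4 after rescaling and to 4 in the compared groups alone, and in Luc 48 h against sham from 4 to 2 in the compared groups alone. In no comparison with 3 or more shared numbers was the correlation of deviations over 0.1 in every pair, so numbers were not treated as pairs (-0.265 to 0.345 over all pairs); with a replicate block, 0 members were called at 4 h post-MI against sham (117 of all genes, against 296) and 2 in AC against Luc at 48 h (977 of all genes, against 1926; Dbp 1.12, adjusted p = 0.0713), and the block could not be estimated between 24 h and other times in the second table.

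Leaving out 1 library gave 0 to 2 members called at 4 h post-MI against sham (2 without sham D), 0 to 1 in Luc 4 h against sham, 2 to 5 in Luc 24 h against sham, 4 to 8 in Luc 48 h against 24 h and 2 to 5 in AC against Luc at 48 h. The correlation of Arntl with Dbp ran from -0.93 to -0.484 in the first table (permutation p under 0.05 in 3 of 10) and from -0.757 to -0.462 in the second (23 of 24). With the compared groups alone, all-gene calls were 715 against 296 at 4 h post-MI, 580 against 194 in Luc 4 h and 1504 against 3774 in Luc 48 h against sham. Without a filter they were 4 and 6 against 1 and 1 in AC against Luc at 4 h and 24 h, and in the compared groups alone 0 at 24 h. Left-out libraries also moved all-gene calls to 2153 in Luc 48 h against sham (without sham 1) and to 325 in Luc 4 h against sham (without sham 2).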
